A study of Mus musculus with 22 samples.

Results

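The 60 genes described here encode guidance cues and their receptors: the Slit and Robo families, the semaphorins with their plexin and neuropilin receptors, the netrins with Dcc, Neo1 and the Unc5 receptors, and the ephrins with the Eph receptors. They were chosen by family membership but do not include every gene of these families, so family counts and densities below cover the listed genes only. All 60 were found among the 21938 protein-coding genes of GENCODE M21 on chromosomes 1 to 19, X and Y (GRCm38). A peak was assigned to a gene when its summit lay in the gene body or within 50 kb of it. Of the 60 genes, 28 encode ligands and 32 encode receptors.

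Oct4 ChIP-seq was performed on frozen aortic segments (the root, the arch and the brachiocephalic region up to the carotid bifurcation) of mice with a wild-type Oct4 locus in smooth muscle cells (SMCs), labelled Oct4-WT/WT, and of mice with an SMC-specific Oct4 deletion, labelled Oct4-KO/KO. There was 1 ChIP sample per genotype with 15 mice in each group, so the spread between replicates is unknown and no test between genotypes was possible. Both groups were apoE-/- males of a C57BL/6 background that carried the SMC lineage tracing reporter eYFP and Myh11-CreERT2, received tamoxifen as young adults and were fed a Western diet for 18 weeks. The Cre is Y-linked and is driven by the Myh11 promoter, so cells other than SMCs kept Oct4 in the knockout, and a peak list does not measure the deletion itself. The tissue was a mixture of cell types, which a peak list cannot separate, and a signal from fewer cells cannot be told apart from a weaker signal per cell. The question behind the comparison was which genes Oct4 may bind in SMCs, genes of cell migration among them.

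Guidance cues are secreted or membrane-bound proteins, first described in growing axons, that attract or repel migrating cells. Slits signal through Robo receptors, class 3 semaphorins through neuropilin and plexin complexes, netrins through Dcc, Neo1 and Unc5 receptors, and ephrins through Eph receptor tyrosine kinases by contact between cells. In the vessel wall these families are known for roles in endothelial sprouting, arteriovenous identity and the migration of vascular cells and leukocytes.

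The deposited lists held 5455 wild-type and 7479 knockout peaks, of which 4977 and 7018 lay on chromosomes 1 to 19, X and Y. A further list, named for the wild-type over the knockout, held the same 5455 entries as the wild-type list and was not counted again. The fold enrichment of a peak, as the authors' peak caller gives it, divides the pileup at the summit by the pileup expected there, after 1 is added to each. In each list the fold values were whole multiples of a single step (0.686 in the wild-type, 0.684 in the knockout), so 1 expected pileup applied to every peak and the number of fragments stacked at each summit could be recovered. The smallest number of fragments that passed was 5 in each list. The read totals are unknown, so the depth behind these lists is known only through this expected pileup, 0.458 fragments for the wild-type list and 0.462 for the knockout list.

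The reference sequence under 3 summits found in 1 genotype alone is shown first, as 81 bases of the + strand of GRCm38 centred on the summit. The wild-type summits that no knockout peak overlapped lay in Ephb1 (chr9:101982139-101982219), where the capitals mark a run of 23 G, and in Slit3 (chr11:35311623-35311703), where they mark the first copy of a tandem unit of 35 bp. Downstream of Unc5d (chr8:28613757-28613837), at a summit called in the knockout, the capitals mark on the opposite strand the octamer ATGCAAAT, the DNA element that Oct4 and other POU factors bind.
Ephb1: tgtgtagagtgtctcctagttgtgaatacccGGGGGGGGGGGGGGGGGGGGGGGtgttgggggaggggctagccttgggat
Slit3, wild-type: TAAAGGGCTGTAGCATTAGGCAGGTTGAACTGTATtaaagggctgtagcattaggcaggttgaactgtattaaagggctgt
Unc5d: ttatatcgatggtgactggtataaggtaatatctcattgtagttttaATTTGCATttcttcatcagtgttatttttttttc

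Of the 60 guidance genes, 13 had a wild-type peak (21.7%) and 21 had a knockout peak (35.0%), against 18.8% and 30.5% of all protein-coding genes by the same rule. Both lists were represented at 13 genes (21.7%, against 16.4% of all genes), 8 genes had a knockout peak and no wild-type peak (13.3%, against 14.1%), and 0 had a wild-type peak and no knockout peak, where 2.34% of all genes did. The remaining 39 genes (65.0%) had no peak in either list. By role, 5 of 28 ligand genes and 8 of 32 receptor genes had a wild-type peak, and 10 ligand genes and 11 receptor genes had a knockout peak. The plot of fold enrichment by gene shows all of these peaks.

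**Figure D1:**
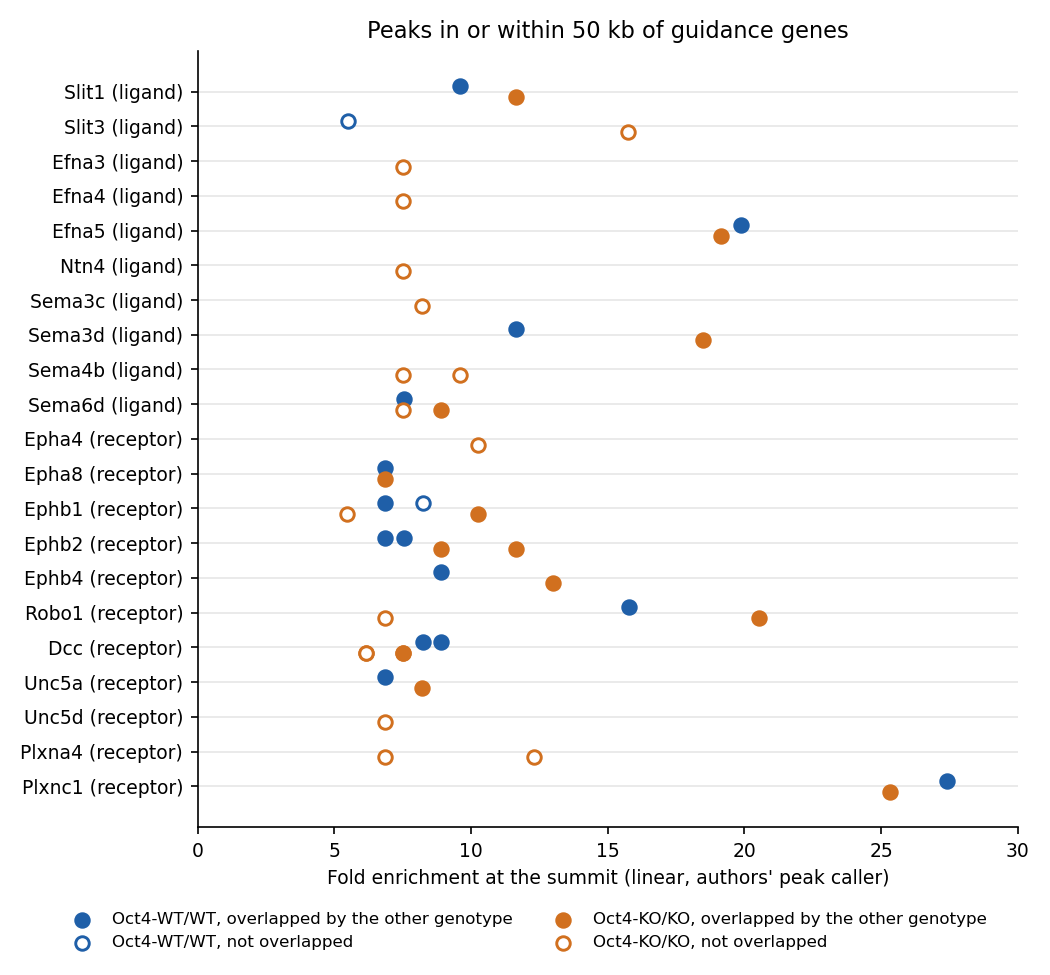
Fold enrichment at the summit (linear axis) of every peak assigned to a guidance gene, by gene. Blue points are Oct4-WT/WT and orange points Oct4-KO/KO; filled points overlap a peak of the other genotype by 1 bp or more and open points do not. Plxnc1, Efna5, Robo1 and Sema3d hold the highest points, the open points are mostly orange, and Efna3 and Efna4 show the same peak. The 2 shared Dcc points of the knockout coincide at 7.52 and the 2 open ones at 6.16.

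Among the Slit ligands, 2 of 3 genes had peaks in each list. Slit1 had a single peak that the genotypes shared, with a fold of 9.60 (13 fragments at the summit) in the wild-type and 11.6 (16 fragments) in the knockout. Its summit lay 47.3 kb downstream of Slit1, in an intron of Lcor, a transcriptional corepressor gene whose transcript start was 3.28 kb away, so the 50 kb rule and not proximity placed it with Slit1. Slit3 had a wild-type peak in intron 4 of 35 (chr11:35311645-35311686) with a fold of 5.49, a -log10 q of 3.65 and 7 fragments, and a knockout peak in intron 6 (chr11:35558832-35558892) with a fold of 15.7, a -log10 q of 26.03 and 22 fragments. Neither Slit3 peak was overlapped in the other genotype, and the knockout peak was the highest of all guidance-gene peaks without a wild-type counterpart. Slit2 had none, and its nearest wild-type peak was 911 kb away.

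Of the 4 Robo receptor genes, only Robo1 had a peak. The shared peak in its intron 2 of 28 had a fold of 15.8 in the wild-type (chr16:72804369-72804425, -log10 q 26.1, 22 fragments) and 20.5 in the knockout (chr16:72804368-72804428, -log10 q 38.3, 29 fragments), with the summit at the same base. A weaker Robo1 peak with a fold of 6.84 (9 fragments) was called in the knockout alone, in an intron of another transcript. Robo2, Robo3 and Robo4, the last known for its expression in endothelium, had no peak within 50 kb.

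Of the 16 semaphorin ligand genes, 2 had a wild-type peak and 4 had a knockout peak. Sema3d, a secreted class 3 semaphorin, held the stronger of the shared peaks, in intron 2 of 17 (wild-type chr5:12453588-12453637, knockout chr5:12453584-12453636), with a fold of 11.7 (-log10 q 16.3, 16 fragments) in the wild-type and 18.5 (-log10 q 32.9, 26 fragments) in the knockout. The shared peak of Sema6d, a transmembrane semaphorin, had folds of 7.54 and 8.89 (10 and 12 fragments). A second Sema6d peak, with a fold of 7.52 and 10 fragments, was called only in the knockout. Sema3c and Sema4b had knockout peaks alone. The Sema3c summit lay in intron 15 of 17 (chr5:17721185-17721229, fold 8.21, -log10 q 8.87, 11 fragments). A Sema4b summit lay 6.21 kb upstream of the gene (fold 7.52, 10 fragments), and the other lay 19.1 kb downstream (chr7:80245576-80245621, fold 9.58, -log10 q 11.7, 13 fragments), where the closest transcript start, at 0.779 kb, was that of Ttll13. The other 12 semaphorin genes, Sema3a, Sema3b, Sema3e, Sema3f, Sema3g, Sema4a, Sema4c, Sema4d, Sema5a, Sema5b, Sema6a and Sema7a, had no peak by this rule.

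The highest fold at any guidance gene was at Plxnc1, which encodes the plexin that binds Sema7a. It was 27.4 in the wild-type (chr10:94872149-94872213, -log10 q 57.1, 39 fragments) and 25.3 in the knockout (chr10:94872149-94872211, -log10 q 51.3, 36 fragments), in intron 5 of 30. This peak ranked 160 by fold among the 4977 wild-type chromosomal peaks and 212 among the 7018 of the knockout. Plxna4, a receptor partner of neuropilins, had knockout peaks alone. Its summit in intron 13 of 31 (chr6:32208617-32208669) had a fold of 12.3, a -log10 q of 17.8 and 17 fragments, and the other, 16.02 kb downstream of the gene, had a fold of 6.84 and 9 fragments. Plxna1, Plxna2, Plxnb1, Plxnb2 and Plxnd1 had none. Both neuropilin genes, Nrp1 and Nrp2, were without a peak in either genotype.

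In the netrin pathway, Ntn4 had a knockout peak in intron 3 of 9 (fold 7.52, 10 fragments) and Ntn1 had none. Dcc, the attractive netrin receptor, is the longest of the 60 genes at 1097 kb and had the most peaks, 2 wild-type and 4 knockout, all in introns. Both wild-type Dcc peaks were shared, with folds of 8.91 and 8.23 against 7.52 at each in the knockout (12 and 11 fragments against 10 and 10), so at Dcc the wild-type was the higher by 1 or 2 fragments. The other knockout peaks of Dcc each had a fold of 6.16 and 8 fragments. Among the Unc5 dependence receptors, Unc5a had a shared peak 37.9 kb upstream with folds of 6.86 and 8.21 (9 and 11 fragments), and Unc5d had a knockout peak 32.9 kb downstream with a fold of 6.84 (9 fragments). Neo1, Unc5b and Unc5c had none.

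The Eph receptors held 6 of the 16 wild-type peaks and 7 of the 29 knockout peaks, at 4 and 5 of 13 genes. Ephb4, a marker of venous endothelium, had a shared peak 32.8 kb upstream in an intron of Slc12a9, with folds of 8.91 and 13.0 (12 and 18 fragments). The transcript start closest to this Ephb4 summit, 2.88 kb away, was that of Trip6. Ephb2 had 2 shared peaks. At that in its 3′ UTR, the folds were 7.54 and 8.89 (10 and 12 fragments), and at that 43.1 kb upstream they were 6.86 and 11.6 (9 and 16 fragments). The upstream Ephb2 summit and the shared Epha8 summit, 21.6 kb downstream of Epha8 with folds of 6.86 and 6.84 (9 fragments in each), lay between these neighbouring genes, and their closest transcript starts were those of the complement genes C1qb and C1qa, known for expression in macrophages. Ephb1 had a peak in intron 10 of 15 in the wild-type alone (chr9:101982158-101982201, fold 8.23, -log10 q 8.86, 11 fragments), a peak in intron 3 in the knockout alone (fold 5.47, 7 fragments), and a shared peak in intron 1 with folds of 6.86 and 10.3 (9 and 14 fragments). Epha4 had a knockout peak in intron 17 of 17 (chr1:77369902-77369951, fold 10.3, -log10 q 13.2, 14 fragments). Epha1, Epha2, Epha3, Epha5, Epha6, Epha7, Ephb3 and Ephb6 had none.

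Among the ephrin ligands, Efna5 had a shared peak in intron 1 of 4 that was the second highest of the guidance genes in the wild-type, with a fold of 19.9 (chr17:62737552-62737628, -log10 q 36.5, 28 fragments), and had a fold of 19.2 in the knockout (chr17:62737556-62737626, -log10 q 34.7, 27 fragments). Efna3 and Efna4, which lie side by side on chromosome 3, were assigned the same knockout peak in the 3′ UTR of Efna4 (fold 7.52, 10 fragments). Efna1, Efna2, Efnb2 and Efnb3 had no peak. Efnb2 encodes the ligand of Ephb4 and marks arterial endothelium, and its nearest knockout peak was 144 kb away.

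Across the families, 16 wild-type and 29 knockout peaks were assigned to guidance genes. Of the 16 wild-type peaks, 14 had at least 1 bp in common with a knockout peak and 2 had none, a share of 12.5% (exact Clopper-Pearson 95% interval 1.55 to 38.3, which like all intervals here covers counting error only). Among the 4961 other wild-type peaks on chromosomes, 33.3% (interval 32.03 to 34.7) had no knockout peak. No guidance-gene peak lay in the 35 bins of 1 Mb that held 20 or more peaks in either list, and outside those bins, which were chosen after the values were seen, 21.8% of the other wild-type peaks (interval 20.4 to 23.3) had none. Of the 29 knockout peaks, 15 had no wild-type peak, 51.7% (interval 32.5 to 70.6), against 52.4% (interval 51.2 to 53.6) of the 6989 others. In each direction the intervals of the guidance genes and of the other peaks overlapped. Without a counterpart, the median fold of the 15 knockout peaks was 7.52 (range 5.47 to 15.7), and with a counterpart that of the other 14 was 10.9 (range 6.84 to 25.3). The median fold of all guidance-gene peaks was 8.23 against 7.54 for other wild-type peaks and 8.21 against 7.52 for other knockout peaks.

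At the 14 shared peaks the knockout had more fragments at the summit in 9, fewer in 4 (Plxnc1, Efna5 and both of Dcc) and the same number in 1 (Epha8). The ratio of knockout to wild-type fold had a median of 1.19 and ran from 0.844 at a Dcc peak to 1.70 at the peak upstream of Ephb2. At the 3307 shared peaks elsewhere on chromosomes this ratio had a median of 1.11 (quartiles 0.931 and 1.33), and the knockout was higher in 61.0%, against 64.3% (interval 35.1 to 87.2) at the guidance genes. The summits of a pair lay at most 7 bp apart, with a median of 1 bp. With 1 sample per genotype, whether any of these pairs differs between genotypes could not be tested.

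**Figure D2:**
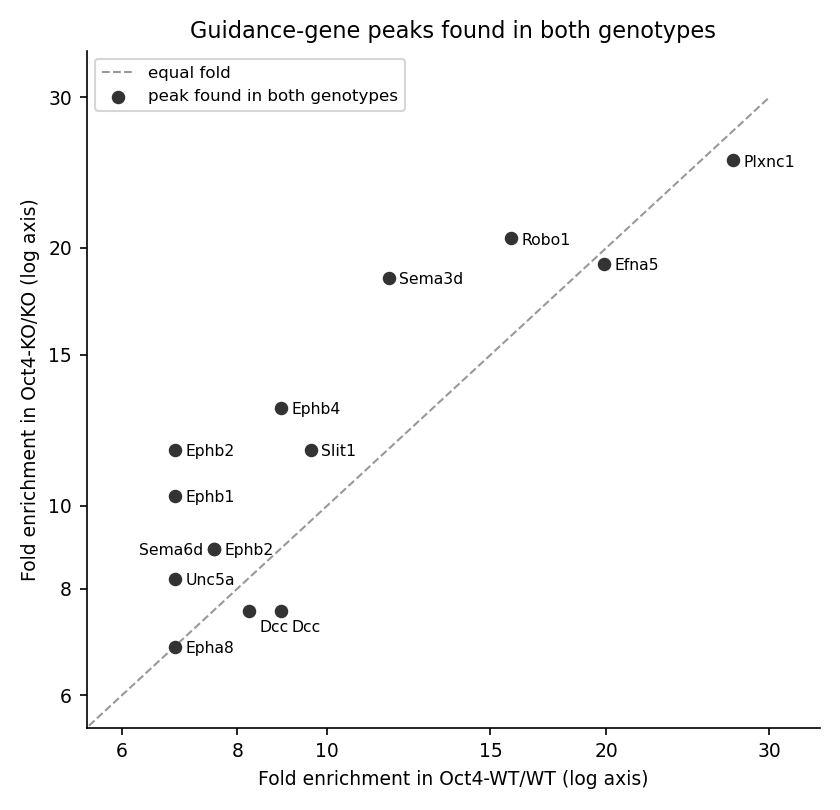
Fold enrichment in Oct4-WT/WT (x axis) and Oct4-KO/KO (y axis), both log axes, of the 14 guidance-gene peaks found in both genotypes; the dashed line marks equal fold. The Sema6d point and a point of Ephb2 coincide at 7.54 and 8.89, and 9 of the 14 peaks lie above the line by at least 1 fragment.

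Most of the peaks lay deep in long genes. Of the 16 wild-type summits 11 were in the body of the gene, 10 of them in introns, and of the 29 knockout summits 20 were in the body and 18 in introns. No summit was within 1 kb of a transcript start of its guidance gene in either list. Within 1 kb of any protein-coding transcript start there were 0 of the 16 wild-type summits and 1 of the 29 knockout summits, the downstream Sema4b peak near Ttll13, against 3.03% and 2.59% of all chromosomal peaks. The median distance to the gene's own closest transcript start, non-coding transcripts included, was 46.1 kb in the wild-type and 47.1 kb in the knockout. In the wild-type this distance ran from 1.14 kb at Plxnc1 to 928 kb at Dcc. The closest protein-coding transcript start to the Plxnc1 summit, that of Plxnc1 itself, was 72.7 kb away. A guidance gene was also the protein-coding gene with the closest start for 9 of the 16 wild-type and 17 of the 29 knockout summits.

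**Figure D3:**
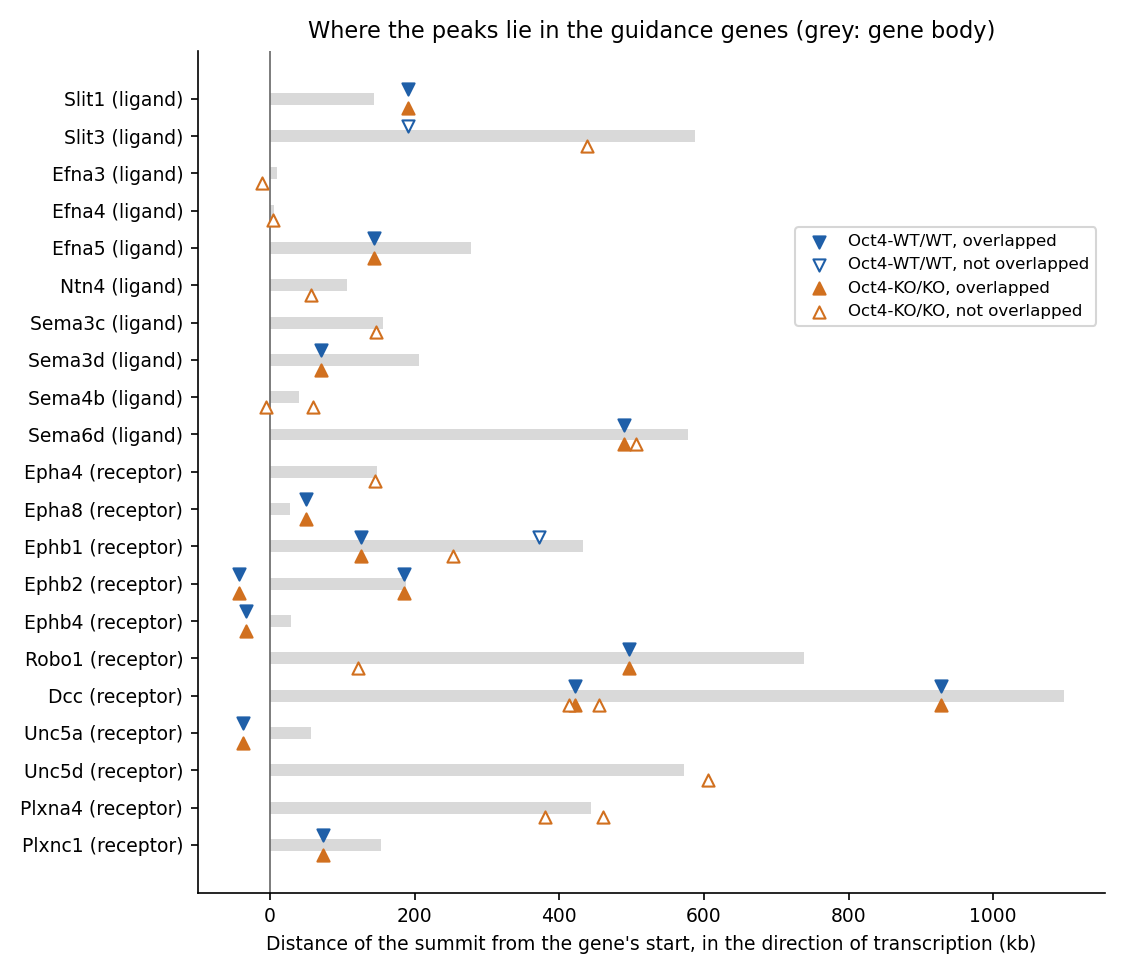
Distance of each summit from the start of its gene in the direction of transcription (x axis, kb) for the 21 guidance genes with a peak; grey bars are gene bodies. Blue triangles are Oct4-WT/WT and orange triangles Oct4-KO/KO, filled where overlapped by the other genotype. No triangle inside a long gene sits at its start, and the peaks of Slit1, Efna3, Sema4b, Unc5a, Unc5d, Epha8 and Ephb4 all lie outside the grey bar.

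The guidance genes are long, with a median of 119 kb against 17.4 kb for all protein-coding genes, and a long gene offers more room for a peak. The genes with peaks in both lists had a median length of 206 kb, those with a knockout peak alone 127 kb, and the 39 without any 46.3 kb. Compared within classes of length, the share with a wild-type peak was 0 of 15 genes under 25 kb (interval up to 21.8%, against 15.2% of all genes of that length), 3 of 12 genes from 25 to 100 kb (against 21.2%), 27.8% of 18 genes from 100 to 300 kb (against 28.2%) and 33.3% of 15 genes over 300 kb (against 41.4%). For the knockout the shares were 13.3%, 33.3%, 44.4% and 46.7%, against 25.2%, 34.9%, 44.4% and 56.6%. In all 8 of these comparisons the value of all genes lay within the interval of the guidance genes.

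**Figure D4:**
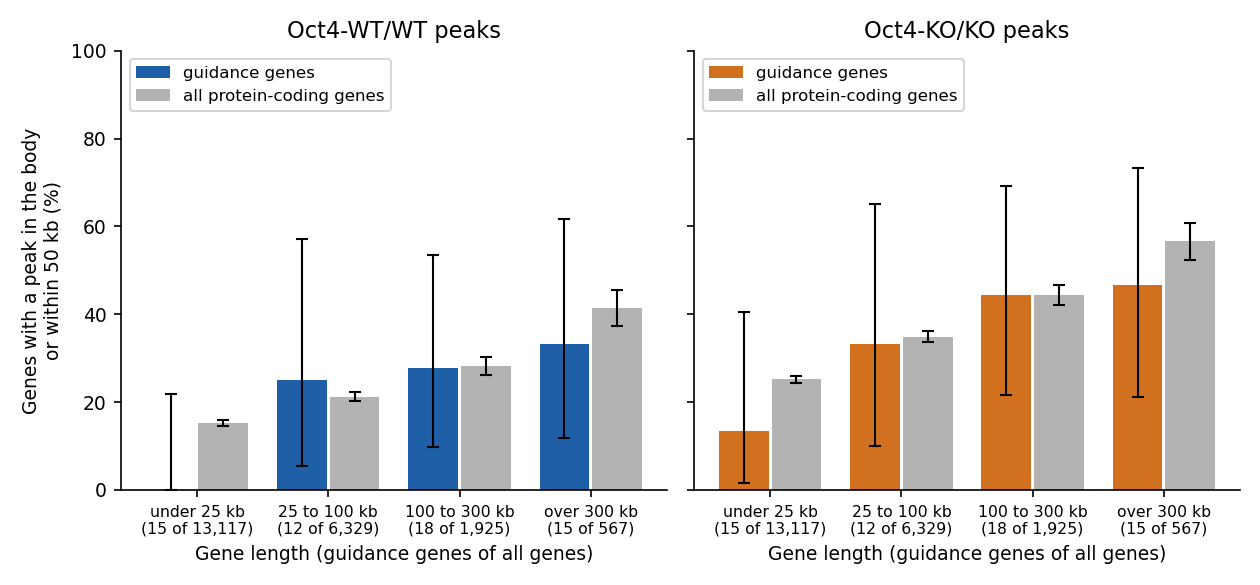
Percent of genes with a peak in the body or within 50 kb (y axis) by gene length (x axis), for Oct4-WT/WT (left) and Oct4-KO/KO peaks (right). Coloured bars are guidance genes and grey bars all protein-coding genes, error bars are exact 95% intervals, and the number of guidance genes of all genes is under each class. The share grows with length in both sets, and every coloured interval includes its grey bar.

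Counted per length of sequence, the merged bodies and flanks of the guidance genes spanned 17.5 Mb and held 0.912 wild-type peaks per Mb (exact Poisson 95% interval 0.521 to 1.48), against 1.93 per Mb over the same territory of all protein-coding genes, a ratio of 0.473 (interval 0.271 to 0.769). For the knockout the density was 1.65 per Mb (interval 1.11 to 2.37) against 2.90, a ratio of 0.571 (interval 0.382 to 0.820). An even spread of each chromosome's peaks over its sequence would have put 30.4 wild-type and 45.9 knockout peaks in this territory, at 21.1 and 27.6 of the genes. The dense bins hold 37.2% of the wild-type and 25.4% of the knockout chromosomal peaks, and without them the ratios were 0.701 and 0.724. Restricted to peaks whose summit sequence has 1 copy in the assembly, they were 0.795 and 0.817. No intervals are given for these restricted ratios, so whether they lie below 1 beyond counting error was not tested. Within the families the wild-type density was highest in the Eph receptors (1.51 per Mb) and Slits (1.48 per Mb) and 0 in the neuropilins and netrins, on counts of at most 6 peaks.

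The 50 kb limit left several peaks just outside. The farthest inside was the Slit1 peak at 47.3 kb. The closest outside were the peak upstream of Ephb2, which lay 50.3 kb from Epha8, and the knockout peak of Efna4, which lay 52.6 kb from Efna1. A shared peak with folds of 24.0 and 27.4 lay 84.2 kb from Sema5b, higher than all but the Plxnc1 peak in the wild-type. Among the 47 genes without a wild-type peak the nearest was a median of 245 kb away (range 69.8 to 1088 kb), and among the 39 without a knockout peak 263 kb (range 52.6 to 911 kb).

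The sequence under the summits was compared with that of the other peaks. Of the 16 wild-type summit windows (201 bp) 15 held bases masked as repeats in the reference, and 26 of the 29 knockout windows did, as did 93.3% and 94.7% of the others. Both the Plxnc1 and the Efna5 window held the telomere unit at least 2 times in tandem, as did 3.37% of other wild-type and 2.33% of other knockout summits. The median of the repeat-masked share was 39.8% for the wild-type and 49.8% for the knockout, against 60.7% and 55.2% at the other summits, and 15 of 16 and 28 of 29 windows had 1 copy in the assembly, whereas 50.6% and 63.0% of the other windows did. The exceptions were the Slit3 peak of the wild-type, with a median of 9 copies per 31-mer, and the Sema3c peak of the knockout, with 3. The other windows include those in the dense bins, where no guidance-gene peak lay. Copy and repeat shares outside these bins are not given, so these contrasts cannot be read as particular to the guidance genes.

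To describe the remaining sequence, the 20 words of 10 letters with the largest excess at the summits over windows centred 1000 bp to each side were taken from the 2511 wild-type peaks with 1 copy outside the guidance genes, on either strand, leaving out words with a run of 6 equal letters. Many of these words overlap one another. The first was TAATCCCAGC, in 12.6% of summit windows against 1.77% of flanking windows, and the steepest was GCCTGTAATC, in 5.54% against 0.119%. As background, words of this kind belong to short interspersed elements derived from 7SL RNA, the mouse B1 and the primate Alu families. Which of these families the words come from was not tested. At the guidance genes, 7 of 16 wild-type windows held such a word (43.8%, interval 19.8 to 70.1), against 22.0% of other wild-type summits and 31.1% of those with 1 copy, and 13 of 29 knockout windows did (44.8%, interval 26.4 to 64.3), against 29.0% and 36.0%. Beside the same summits, 1 of 32 wild-type and 2 of 58 knockout flanking windows did. The wild-type windows with a word were those of Slit1, Sema3d, Unc5a, Ephb1 and Ephb4 and both of Ephb2, all of them shared with the knockout. In the knockout, 7 of 14 shared and 6 of 15 unshared windows held one, the latter at Slit3, Plxna4, Ntn4, Sema3c, Robo1 and Dcc. At the guidance genes the words thus stood under shared peaks and under unshared knockout peaks, but under 0 of the 2 unshared wild-type peaks. Among the other wild-type peaks with 1 copy, from which the words were chosen, 11.7% of unshared and 35.6% of shared ones held a word. For the other knockout peaks with 1 copy these shares were 36.6% and 35.3%. The part of the words in the peak calls was not tested. The peak lists hold no reads, so whether reads from other copies of such elements, or from another species, lie under these summits was not tested.

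**Figure D5:**
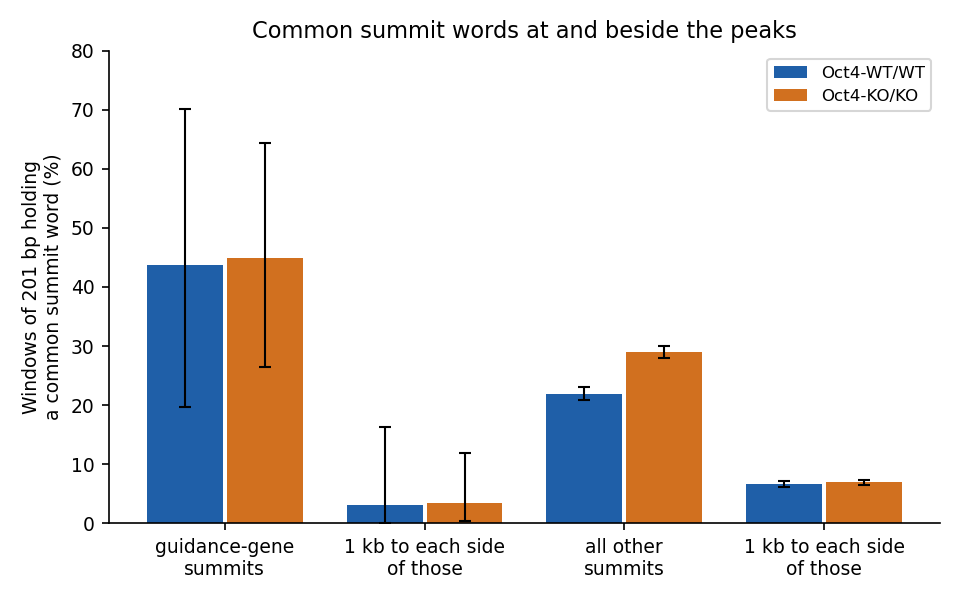
Percent of 201 bp windows (y axis) that hold at least 1 of the 20 words, at guidance-gene summits, in windows 1 kb to each side of them, at all other chromosomal summits and beside those. Blue bars are Oct4-WT/WT, orange bars Oct4-KO/KO, and error bars exact 95% intervals. The words were chosen for their excess at other wild-type summits, so the higher bars of all other summits over their flanks restate that choice. At the guidance genes 7 of 16 and 13 of 29 summits hold a word, against 1 of 32 and 2 of 58 flanking windows.

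The octamer stood within 100 bp of 0 of the 16 wild-type summits (interval up to 20.6%) and of 2 of the 29 knockout summits, at Sema4b and Unc5d, against 2.06% of the other wild-type and 2.58% of the other knockout summits. Neither peak with the octamer was called in the wild-type. With 1 mismatch allowed, 3 wild-type and 8 knockout windows held a match (18.8% and 27.6%), against 20.9% and 22.4% of the other summits. A run of 34 G or C lay under 1 of the shared Dcc peaks, longer than that under the Ephb1 peak of the wild-type.

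A further 58 genes of guidance signalling were listed from general knowledge of the pathways. Most encode adaptors, kinases and GTPase regulators that act downstream of these receptors. Some encode cues or surface proteins, among them Rgma, Draxin, Dscam and L1cam. Of the 58 genes, 15 had a wild-type peak (25.9%, against 18.8% of all protein-coding genes) and 32 had a knockout peak (55.2%, against 30.5%) by the same rule. Their median length was 109 kb, and of all genes from 100 to 300 kb 28.2% had a wild-type and 44.4% a knockout peak. As among the guidance genes, 0 had a wild-type peak alone (against 2.34% of all genes), and 17 had a knockout peak alone (29.3%, against 14.1%). These last all-gene values cover genes of every length, most of them shorter, and a share among genes of like length is not given. The class from 100 to 300 kb matches only the median of the 58, and genes such as Vasp (14.9 kb) and Dscam (580 kb) fall outside it. No intervals are given for the shares of the 58 genes, so whether they differ from the all-gene values beyond counting error was not tested. The highest fold of all wild-type chromosomal peaks, 56.9 against 54.04 in the knockout, was within 50 kb of Pak3, which encodes a p21-activated kinase. The Slit and Robo effector Srgap1 had a shared peak with folds of 10.3 and 15.0, and the GTPase gene Rac1 a shared peak with folds of 9.60 and 13.0. The GTPase genes Rhoa and Cdc42 had knockout peaks alone, with folds of 7.52 and 6.84. The peaks named here for Pak3, Srgap1, Rac1, Rhoa and Cdc42 all lay in the 50 kb flanks, outside the gene bodies.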

How the data were processed

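Oct4 ChIP-seq peak lists of 2 samples, 1 per genotype, were analysed. Per the paper's methods, the authors used Bowtie for the alignment to GRCm38.p6, SAMtools to drop duplicate reads and MACS2 for the calls, kept under a q value of 0.05. The control of each call, the versions and whether the mice were pooled are not given in the sources used here. Since 1 expected pileup applied to every peak of a list, the fold values hold no correction for a local background. For each peak the authors deposited the fold enrichment (a linear ratio), the −log10 p and −log10 q, a score, which was not read, and the summit offset. The other assays of the series were not analysed here.

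The members and lists were chosen with earlier results of these data known. Summits were assigned to gene bodies with 50 kb on each side (GENCODE M21). Peaks were shared at an overlap of 1 bp. The step from one fold value to the next gave the fragments at a summit, since fold divided by this step was within 0.00041 of a whole number. Sequence, repeat masking and copies (median count of its 31-mers, 100 bp on each side of the summit) came from the RefSeq GRCm38.p6 genome. Every member was accounted for; full values were given for the 5 peaks of highest fold in each list, each wild-type peak that the knockout lacked, the 5 highest knockout peaks that the wild-type lacked, and the member with the most peaks. The Sema5b peak and the word list were chosen after their values were seen. Some summit sequences are not reported here. Intervals are exact at 95%. Introns are numbered in the transcript with the longest coding sequence. Python 3.11.15, numpy 2.4.6, pandas 2.3.3, scipy 1.17.1, numba 0.67.0 and matplotlib 3.10.9 were used, and the assignment, overlap and copy steps were tested on simulated data.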

Additional observations from a re-analysis of the deposited data

How the results depend on the processing

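No paired analysis was possible because each genotype has a single ChIP sample, and for the same reason no replicate could be left out. The counts of genes with a peak, the shares of peaks without a counterpart, the densities and the octamer count were recomputed under 36 alternatives (flanks of 0, 10 and 100 kb, a q value under 0.01, other overlap rules, 1 copy in the assembly, nearest gene, octamer settings). Of these, 34 stayed within 1.5 times the main count or within its interval. With 1 copy in the assembly the wild-type density relative to protein-coding genes rose to 0.795, and with 1 mismatch allowed 11 summits held the octamer in place of 2. All 6 values outside the dense bins, an alternative chosen after seeing the data, stayed. The gene counts and the shares without a counterpart could not move there, because no guidance-gene peak lay in a dense bin. Nor could these counts and shares move under a q value of 0.01, since the lowest -log10 q of a guidance-gene peak was 3.65. The lists give no read totals, so whether a gene without a peak was unbound or under the limit of 5 fragments cannot be told apart.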
